A study of Mus musculus with 6 samples.

Results

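The genes described here encode the nuclear subunits of the mitochondrial respiratory chain in mouse pancreatic islets, and were taken by name from the protein-coding entries of the deposited expression table. The names began with Nduf, Uqcr, Cox4 to Cox8 or Atp5, or were Sdha, Sdhb, Sdhc, Sdhd, Cyc1 or Cycs. They came to 96 entries of 54532 in the table, of which 88 were counted as subunits or electron carriers and 8 were complex I assembly factors that share the Nduf prefix. The 88 include a supercomplex factor, Cox7a2l, counted with complex IV, and coupling factor B, Atp5s, counted with complex V. By complex, 36 belonged to complex I, 4 to complex II, 9 to complex III, 20 to complex IV and 18 to complex V, with Cycs encoding cytochrome c. Atp5o stood in the table in 2 entries, and the second was at 0 in every sample. The series compared islets of mice labelled Wtap-βKO, a loss of Wtap meant for the insulin-producing β cells, with islets of Wtapflox/flox mice, whose Wtap gene carries recombination sites. Each group had 3 samples from mice aged 7 weeks, and each sample pooled islets of 3 mice. The labels name neither the Cre driver nor the deleted exons. Messenger RNA was sequenced, and levels are given in FPKM, fragments per kilobase of gene scaled to depth, as the authors deposited them.

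The respiratory chain passes electrons from NADH at complex I and succinate at complex II through coenzyme Q, complex III and cytochrome c to oxygen at complex IV, and complex V uses the resulting proton gradient to make ATP. In β cells this ATP couples glucose metabolism to insulin release. Several subunits of complex IV exist as a widely used isoform and a second form that is typical of muscle, lung, testis or low oxygen, and the assembled complexes mix these nuclear products with subunits from the mitochondrial genome.

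The libraries held between 16353297 and 18682745 reads recovered from the FPKM values and gene lengths. The targeted gene, Wtap, showed no drop under the Wtap-βKO label, with 11.8 ± 0.552 FPKM there and 11.2 ± 0.545 FPKM in Wtapflox/flox islets (SD, n = 3 each; log2 fold change 0.07, adjusted p = 0.475), and this value covers all exons and all islet cell types, so directions below are those of the libraries as labelled. Summed markers of β cells were at 81579 to 92204 FPKM in Wtap-βKO libraries and 134464 to 154675 FPKM in Wtapflox/flox libraries, with 7 of 9 genes lower. Summed markers of α cells were at 33810 to 44654 FPKM in Wtap-βKO libraries and 21291 to 25494 FPKM in Wtapflox/flox libraries, with 4 of 6 genes higher. Of all genes tested, 8.77% rose and 11.3% fell. Most of the β-cell sum came from Ins2, Ins1 and Iapp, and most of the α-cell sum from Gcg. Ins2 (adjusted p = 0.19), Iapp (0.935), Gcg (0.089) and Slc7a2 (0.286) did not pass the test. The groups did not overlap for Ins2 and Gcg. In whole islets, fewer cells of a type and less RNA per cell cannot be told apart, and the part of these markers in the results below was not tested. Wtap-βKO replicate 2 stood apart on the second principal component (16.2% of the variance) and held 27860 FPKM of δ-cell and PP-cell markers, against 12552 to 15480 FPKM in the other libraries. Ppy had 19590 FPKM in that library and 8489 to 9769 FPKM in the others. Between the groups, 2 of these 4 markers were higher in Wtap-βKO islets, Sst (adjusted p = 0.0263) and Rbp4 (adjusted p = 0.00488). Sst had 5422, 8071 and 6519 FPKM in Wtap-βKO libraries and 3914, 3800 and 4172 FPKM in Wtapflox/flox libraries.

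Most of the respiratory chain genes were measured in every library. Of the 96 entries, 91 had a mean of at least 0.5 FPKM over the 6 samples and were tested. Their mean levels ran from 0.798 FPKM for Cox7a1 to 237 FPKM for Cox8a, with a median of 27.0 FPKM, against a median of 4.86 FPKM over the 15927 genes tested. Across these 91 genes the group means ranked alike (Spearman's rho 0.973 across genes, which are not independent replicates). Cox6b2, at a mean of 0.446 FPKM, lay just under the filter, and Cox8b, Cox7b2, Cox8c and the second Atp5o entry lay at or near 0. The deposited gene lengths exceeded the longest annotated coding messenger RNA by a median of 1.42 times and by up to 11.8 times (Atp5l), so levels are compared between genes only roughly.

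Of the 91 genes, 9 changed by limma at an adjusted p under 0.05, 4 higher and 5 lower in Wtap-βKO islets. That is 9.89%, where 20.1% of all genes tested changed, 8.77% higher and 11.3% lower, and 22.2% of the 12715 protein-coding genes tested. The genes that rose were Ndufaf4, Uqcrfs1, Ndufa4l2 and Uqcr10, and those that fell were Cox6a2, Sdha, Atp5a1, Ndufaf6 and Ndufs8. The 2 groups did not overlap for 25 of the 91 genes (27.5%), where this held for 41.3% of all genes tested. The median log2 fold change was 0.00 for the 91 genes and -0.01 for all genes, and 83 of the 91 (91.2%) lay within 0.3 of 0 on the log2 scale, as did 70.9% of all genes. Among genes with a mean of at least 5 FPKM, 10 of 84 respiratory chain genes changed (11.9%), where 33.2% of all such genes did.

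**Figure D1:**
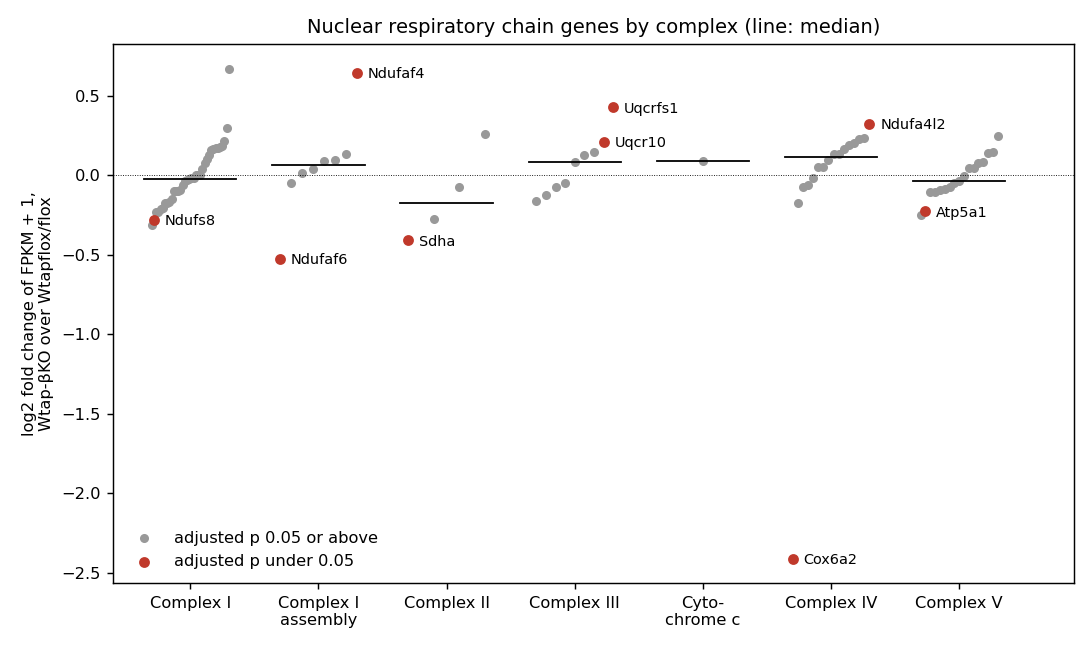
Log2 fold change of FPKM + 1, Wtap-βKO over Wtapflox/flox, for the 91 tested genes by complex, each point a gene and each line the median of its complex. Red points are the 9 genes with an adjusted p under 0.05, and Cox6a2 at -2.41 lies far below the others, which run from -0.52 to 0.67.

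The counts moved with the scaling between samples. The depth behind the deposited FPKM was 1.04 to 1.07 times the recovered reads in Wtap-βKO libraries and 0.952 to 0.988 times in Wtapflox/flox libraries, which sets Wtap-βKO values lower, relative to Wtapflox/flox values, than scaling to total reads would. When FPKM was scaled to equal totals of recovered reads, 15 of the 91 genes were higher and 2 lower, and the median of all genes shifted to 0.08. Cox6a2, Sdha, Uqcrfs1 and Ndufaf4 were called, in the same direction, under each of the 15 alternative settings. Ndufa4l2 and Uqcr10 were called under 7 of the 15, Atp5a1 under 6 and Ndufs8 under 5, and Ndufaf6 under 7 of the 14 that tested it.

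The largest change was in Cox6a2, the form of cytochrome oxidase subunit VIa typical of heart and skeletal muscle (chr7:128205435-128206387 on the minus strand, GRCm38). Cox6a2 had 4.76, 5.01 and 7.50 FPKM in Wtap-βKO islets, against 27.6, 39.3 and 37.4 FPKM in Wtapflox/flox islets. All 3 Wtap-βKO values lay well below the lowest Wtapflox/flox value. Cox6a2 averaged 5.76 ± 1.52 FPKM in Wtap-βKO islets and 34.8 ± 6.28 FPKM in Wtapflox/flox islets (SD, n = 3 each), a fall of 6.04-fold (log2 fold change -2.41, SE 0.19, adjusted p = 0.000574). Leaving out any single library gave 5.56-fold to 7.12-fold. In reads, Cox6a2 had 61, 61 and 88 in Wtap-βKO libraries and 329, 422 and 453 in Wtapflox/flox libraries. Markers of skeletal and cardiac muscle summed to 1.27 to 2.24 FPKM in Wtap-βKO libraries and 1.34 to 1.81 FPKM in Wtapflox/flox libraries, with Myh1 and Myh2 at 0 throughout and 0 of the 2 tested genes changed. The Cox6a2 level was above the sum of the whole muscle list in each library, and the part of muscle cells was not tested. β-cell markers were lower in the same libraries, as given above, and their part in the Cox6a2 result was not tested.

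Cox6a1, the form used in most tissues (chr5:115345642-115348981, minus strand), had 169, 202 and 188 FPKM in Wtap-βKO islets, against 164, 165 and 179 FPKM in Wtapflox/flox islets. These values overlapped and did not differ by the test (log2 fold change 0.14, SE 0.079, adjusted p = 0.27), although Cox6a1 was called higher under quantile normalization and under scaling to total reads. Cox6a2 made up 2.73%, 2.42% and 3.84% of the summed FPKM of the pair in Wtap-βKO islets, against 14.4%, 19.2% and 17.3% in Wtapflox/flox islets. The share was thus 3.00% ± 0.742 in Wtap-βKO islets and 17.0% ± 2.44 in Wtapflox/flox islets, a difference of -14.0 points. The groups did not overlap, and the two-sided exact permutation test gave 0.1, the smallest p that 3 against 3 samples allow (0.2 adjusted over 4 pairs). The 2 genes are told apart by sequence. Over 291 coding bases of Cox6a2 and 336 of Cox6a1 the identity was 62.5%, and the longest exact stretch they share is 12 bases. The longest gap-free block of their alignment shows how far they differ, with 37 of 132 bases unequal. It is printed from GENCODE M21 transcripts, coding bases 160 to 291 of Cox6a2 and 205 to 336 of Cox6a1, with the unequal bases in capitals.
Cox6a2: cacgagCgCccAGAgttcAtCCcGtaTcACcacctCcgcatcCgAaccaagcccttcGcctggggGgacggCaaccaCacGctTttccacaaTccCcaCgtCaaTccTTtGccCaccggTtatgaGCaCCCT
Cox6a1: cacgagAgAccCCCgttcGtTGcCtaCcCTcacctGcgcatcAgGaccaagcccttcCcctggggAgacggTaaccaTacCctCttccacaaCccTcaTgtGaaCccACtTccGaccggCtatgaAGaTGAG
Cox6a2 shares 70 of its 680 annotated exon bases with Itgad on the opposite strand, and the library protocol does not mark strand. Itgad itself had 10, 11 and 8 reads in Wtap-βKO libraries and 47, 43 and 46 in Wtapflox/flox libraries, fewer than Cox6a2 in each library, and the part of these shared bases was not tested.

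The other isoforms of complex IV are typical of particular tissues. Ndufa4l2, a low-oxygen-induced relative of the complex IV subunit NDUFA4, had 6.30, 7.04 and 6.51 FPKM in Wtap-βKO islets, against 5.52, 4.68 and 5.03 FPKM in Wtapflox/flox islets. The groups did not overlap, and Ndufa4l2 rose 1.30-fold (log2 fold change 0.33, SE 0.078, adjusted p = 0.0281). Leaving out any library but Wtapflox/flox replicate 1 put its adjusted p at 0.0527 to 0.0868. Its partner Ndufa4 had 42.2 ± 3.56 FPKM in Wtap-βKO islets and 42.7 ± 4.55 FPKM in Wtapflox/flox islets (n = 3 each; adjusted p = 0.935). Ndufa4l2 made up 13.6% ± 0.568 of the pair in Wtap-βKO islets and 10.7% ± 1.03 in Wtapflox/flox islets, a difference of 2.90 points without overlap (two-sided exact permutation p = 0.1, the smallest possible, and 0.2 adjusted over 4 pairs). Deposited lengths were 2.26 times the longest coding messenger RNA for Ndufa4 and 1.17 times for Ndufa4l2. The size of this share is therefore only rough in both groups. Pericyte and smooth muscle markers summed to 59.9 to 62.8 FPKM in Wtap-βKO libraries and 47.4 to 52.0 FPKM in Wtapflox/flox libraries, with 2 of 8 genes higher (Rgs5 and Abcc9). Fibroblast and stellate cell markers summed to 22.3 to 30.1 FPKM in Wtap-βKO libraries and 10.3 to 15.8 FPKM in Wtapflox/flox libraries. Of these, 4 of 5 tested genes were higher, where 8.77% of all genes tested rose. The part of either list in the Ndufa4l2 result was not tested. Ndufa4l2 shares 32 annotated exon bases with Shmt2 on the opposite strand.

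Cox4i2, the lung-typical form of subunit IV, had 2.49, 3.19 and 2.21 FPKM in Wtap-βKO islets, against 1.67, 2.01 and 2.64 FPKM in Wtapflox/flox islets. These overlapped (adjusted p = 0.326), and its share beside Cox4i1 was 3.09% ± 0.387 in Wtap-βKO islets and 2.67% ± 0.548 in Wtapflox/flox islets (exact permutation p = 0.3, and 0.4 adjusted over 4 pairs). This share is also rough in size, as deposited lengths were 2.03 times (Cox4i1) and 1.08 times (Cox4i2) the longest coding messenger RNA. Cox4i1 itself was at 71.5, 95.0 and 81.3 FPKM in Wtap-βKO islets and 75.3, 75.6 and 78.5 FPKM in Wtapflox/flox islets (adjusted p = 0.526). Cox7a1, the muscle form of subunit VIIa, had only 4, 4 and 11 reads in Wtap-βKO libraries and 15, 2 and 9 in Wtapflox/flox libraries. Its share beside Cox7a2 was 1.53% ± 1.04 in Wtap-βKO islets and 2.03% ± 1.5 in Wtapflox/flox islets (exact permutation p = 0.7, also after adjustment), and at this depth no difference was detectable. The testis form Cox6b2 had 16, 20 and 4 reads in Wtap-βKO libraries and 4, 5 and 4 in Wtapflox/flox libraries, which overlap. Cox8b, the muscle form of subunit VIII, had 1, 0 and 0 reads in Wtap-βKO libraries and 0, 1 and 0 in Wtapflox/flox libraries. Cox7b2 and Cox8c were listed at 0 in all 6. Among Cox6a2, Ndufa4l2, Cox4i2, Cox7a1, Cox6b2, Cox8b, Cox7b2 and Cox8c, Cox6a2 in Wtapflox/flox islets thus had the highest level and share in deposited FPKM.

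**Figure D2:**
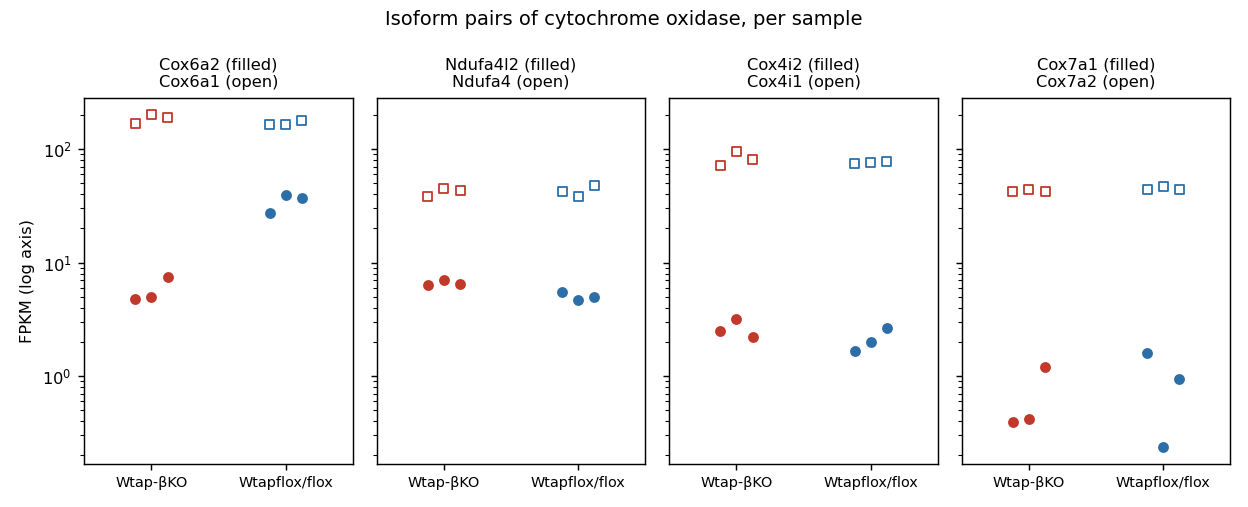
FPKM on a log axis for 4 isoform pairs, with Wtap-βKO samples in red and Wtapflox/flox samples in blue, filled circles for the tissue-typical form and open squares for its partner. Cox6a2 sits at 4.76 to 7.50 FPKM in Wtap-βKO islets and 27.6 to 39.3 FPKM in Wtapflox/flox islets, while the 2 groups overlap for Cox4i2, Cox7a1 and all 4 partners.

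Of the 16 tested complex IV genes, 1 rose and 1 fell (12.5% in either direction, against 20.1% of all genes tested). Their median log2 fold change was 0.12. Cox8a, the liver-type form of subunit VIII and the highest of all the genes described, had 234, 279.9 and 256 FPKM in Wtap-βKO islets, against 222, 209 and 222 FPKM in Wtapflox/flox islets. Its groups did not overlap, but its adjusted p was 0.0806 (log2 fold change 0.23, SE 0.078). It was called higher under 5 alternatives, the 3 other scalings, voom on recovered reads and the fit without Wtap-βKO replicate 1. Cox6b1, which lies where cytochrome oxidase forms a dimer, had 70.8, 83.8 and 84.0 FPKM in Wtap-βKO islets, against 68.8, 74.0 and 68.9 FPKM in Wtapflox/flox islets (adjusted p = 0.19). Cox7a2l, which links complexes III and IV into a supercomplex, was at 203 FPKM in Wtap-βKO replicate 2 and at 128 to 139 FPKM in the other 5 libraries. It was chosen after its values were seen, and a near-identical copy makes its level uncertain.

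Complex II, succinate dehydrogenase, changed in its catalytic flavoprotein. Sdha (chr13:74322254-74350280, minus strand), which oxidises succinate, had 43.1, 47.9 and 41.4 FPKM in Wtap-βKO islets, against 58.9, 59.1 and 58.5 FPKM in Wtapflox/flox islets. Every Wtap-βKO value was below every Wtapflox/flox value, and the Wtapflox/flox values differed little among themselves. Sdha fell 1.33-fold, to 44.2 ± 3.37 FPKM in Wtap-βKO islets, against 58.8 ± 0.319 FPKM in Wtapflox/flox islets (log2 fold change -0.41, SE 0.064, adjusted p = 0.00685). The iron-sulphur subunit Sdhb had 20.7, 23.9 and 22.1 FPKM in Wtap-βKO islets, against 23.2, 23.4 and 23.5 FPKM in Wtapflox/flox islets (adjusted p = 0.462). Sdhc, a membrane anchor, had 18.1, 21.4 and 21.1 FPKM in Wtap-βKO islets, against 21.7, 26.3 and 25.8 FPKM in Wtapflox/flox islets, without overlap (log2 fold change -0.27, adjusted p = 0.0919). Sdhd, the other anchor, had 92.8, 118 and 86.6 FPKM in Wtap-βKO islets, against 77.1, 86.9 and 82.1 FPKM in Wtapflox/flox islets, with overlap (log2 fold change 0.26, adjusted p = 0.168). The 4 subunits, which form a complex with a copy of each, thus gave estimates on both sides of 0, and only Sdha passed the test. That is 25% of the 4, against 20.1% of all genes tested.

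Complex III, which passes electrons from coenzyme Q to cytochrome c, had 2 of 9 genes higher and 0 lower. These 2 came to 22.2% of its genes, near the 20.1% of all genes tested that changed in either direction (8.77% higher). Uqcrfs1, the Rieske iron-sulphur protein (chr13:30540308-30545362, minus strand), had 80.5, 93.1 and 86.8 FPKM in Wtap-βKO islets, against 62.1, 62.1 and 68.5 FPKM in Wtapflox/flox islets. The groups were well apart, and Uqcrfs1 rose 1.35-fold (log2 fold change 0.43, SE 0.073, adjusted p = 0.00909). The small accessory subunit Uqcr10 had 60.7, 62.7 and 61.9 FPKM in Wtap-βKO islets, against 53.9, 55.1 and 50.8 FPKM in Wtapflox/flox islets, and rose 1.16-fold (log2 fold change 0.21, SE 0.052, adjusted p = 0.0327). Leaving out Wtap-βKO replicate 1 or 3, or any Wtapflox/flox replicate, put the adjusted p of Uqcr10 at 0.0613 to 0.108. The other redox subunit, cytochrome c1 (Cyc1), had 27.9 to 31.8 FPKM in Wtap-βKO islets and 30.6 to 31.6 FPKM in Wtapflox/flox islets (adjusted p = 0.608). The core protein Uqcrc1 had 20.3, 24.9 and 22.8 FPKM in Wtap-βKO islets, against 24.8, 25.2 and 26.2 FPKM in Wtapflox/flox islets (adjusted p = 0.194). Uqcrh, the hinge protein, had 37.1, 43.5 and 40.3 FPKM in Wtap-βKO islets, against 33.5, 37.3 and 38.1 FPKM in Wtapflox/flox islets (adjusted p = 0.234). Cycs, the soluble cytochrome c, had 11.8, 12.5 and 14.0 FPKM in Wtap-βKO islets, against 11.5, 12.3 and 11.9 FPKM in Wtapflox/flox islets (adjusted p = 0.413), and near-identical copies of Cycs make its level uncertain.

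Complex I, the NADH dehydrogenase, had 1 of 36 genes lower and 0 higher (2.78% in either direction, against 20.1% of all genes tested). The direction of its calls turned on the scaling, with 3 higher and 0 lower under quantile normalization, 3 and 0 when rescaled without the 50 highest genes, and 6 and 0 under scaling to total reads. Ndufs8, a core subunit that holds iron-sulphur clusters on the path to coenzyme Q, had 30.2, 33.1 and 28.6 FPKM in Wtap-βKO islets, against 38.0, 39.4 and 34.7 FPKM in Wtapflox/flox islets. The groups did not overlap, and Ndufs8 fell 1.22-fold (log2 fold change -0.28, SE 0.075, adjusted p = 0.0418). Leaving out any library but Wtap-βKO replicate 2 put its adjusted p at 0.0511 to 0.129, and it was not called under any of the 3 other scalings. Ndufs1, the largest core subunit, had 8.54, 7.98 and 9.19 FPKM in Wtap-βKO islets, against 9.71, 10.5 and 10.04 FPKM in Wtapflox/flox islets, without overlap (adjusted p = 0.0714). The 7 nuclear core subunits had log2 fold changes of -0.28 to -0.03, all below 0 as deposited, but 6 of 7 lay below 0 under quantile normalization and 4 of 7 under scaling to total reads.

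None of the 29 accessory subunits of complex I passed the test, with 16 estimates above 0 and 13 below. Under quantile normalization or without the 50 highest genes 20 estimates lay above 0 and 3 genes were called higher, and under scaling to total reads 23 lay above 0 and 6 were called higher. Ndufa8 had 48.8, 51.8 and 52.3 FPKM in Wtap-βKO islets, against 46.9, 43.5 and 43.5 FPKM in Wtapflox/flox islets, without overlap (adjusted p = 0.0598). Ndufa7 had 22.9, 24.2 and 22.3 FPKM in Wtap-βKO islets, against 26.7, 26.4 and 25.6 FPKM in Wtapflox/flox islets, also without overlap (adjusted p = 0.0622). Neither of these 2 accessory subunits passed the test, and their estimates lay on opposite sides of 0. Ndufa1, the complex I gene with the highest level, had 97.4, 95.7 and 109 FPKM in Wtap-βKO islets, against 82.5, 83.9 and 102 FPKM in Wtapflox/flox islets (adjusted p = 0.251). Ndufa12 was at 16.7 FPKM in Wtap-βKO replicate 2 and at 4.24 to 7.85 FPKM in the other 5 libraries (adjusted p = 0.226). It too was chosen after its values were seen and has a near-identical copy.

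Of the 8 complex I assembly factors, which help build the enzyme without staying in it, 1 rose and 1 fell. That is 25% in either direction, against 20.1% of all genes tested. Ndufaf4 (chr4:24898083-24905001, plus strand) had 7.90, 7.27 and 8.98 FPKM in Wtap-βKO islets, against 4.61, 4.28 and 5.47 FPKM in Wtapflox/flox islets. The groups did not overlap, and Ndufaf4 rose 1.68-fold (log2 fold change 0.65, SE 0.10, adjusted p = 0.00758), the largest rise in fold among the 9 genes that changed. Ndufaf6 had 3.52, 4.21 and 3.19 FPKM in Wtap-βKO islets, against 5.87, 4.61 and 6.60 FPKM in Wtapflox/flox islets. These groups were close, with 4.21 FPKM in the highest Wtap-βKO sample and 4.61 FPKM in the lowest Wtapflox/flox sample, and Ndufaf6 fell 1.56-fold (log2 fold change -0.52, SE 0.13, adjusted p = 0.0352). Without Wtap-βKO replicate 1 or 3 or Wtapflox/flox replicate 1 or 3, its adjusted p was 0.0915 to 0.103. The remaining 6 factors had adjusted p-values from 0.409 (Ndufaf1) to 0.923 (Ndufaf8).

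Complex V, the ATP synthase, had 1 of 17 tested genes lower and 0 higher (5.88% in either direction, against 20.1% of all genes tested). With the replicate number as a block it had 0 lower and 1 higher, as Atp5a1 lost its call and Atp5mpl gained one. Atp5a1, the α subunit of the catalytic F1 head and its most abundant transcript here, had 143, 157 and 149.8 FPKM in Wtap-βKO islets, against 175, 172 and 178 FPKM in Wtapflox/flox islets. The groups did not overlap, and Atp5a1 fell 1.17-fold (log2 fold change -0.22, SE 0.057, adjusted p = 0.0349). Leaving out any library but Wtap-βKO replicate 2 put its adjusted p at 0.0813 to 0.115, and it was not called under scaling to total reads. Its catalytic partner, the β subunit Atp5b, had 117, 124 and 125 FPKM in Wtap-βKO islets, against 129, 128 and 136 FPKM in Wtapflox/flox islets, without overlap but with an adjusted p of 0.229, and its estimate of -0.10 turned to 0.01 under scaling to total reads.

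Subunit c, which forms the rotating ring, is encoded by 3 genes that give the same mature protein, and near-identical copies make the levels of Atp5g1 and Atp5g2 uncertain. Atp5g1 had 9.94, 10.2 and 11.6 FPKM in Wtap-βKO islets, against 12.6, 12.1 and 13.5 FPKM in Wtapflox/flox islets, without overlap (log2 fold change -0.25, SE 0.076, adjusted p = 0.0622). Atp5g1 made up 10.7% ± 0.647 of the 3 genes in Wtap-βKO islets and 11.9% ± 0.201 in Wtapflox/flox islets. Atp5g2 made up 43.0% ± 0.0886 in Wtap-βKO islets and 42.7% ± 0.537 in Wtapflox/flox islets, and Atp5g3 made up 46.3% ± 0.610 in Wtap-βKO islets and 45.4% ± 0.721 in Wtapflox/flox islets. The Atp5g1 share thus differed by -1.17 points per length, or by -2.18 points in recovered reads, and these shares were not tested. Atp5mpl, a small membrane subunit, had 15.9, 19.5 and 20.2 FPKM in Wtap-βKO islets, against 12.9, 15.8 and 17.7 FPKM in Wtapflox/flox islets (adjusted p = 0.222).

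**Figure D3:**
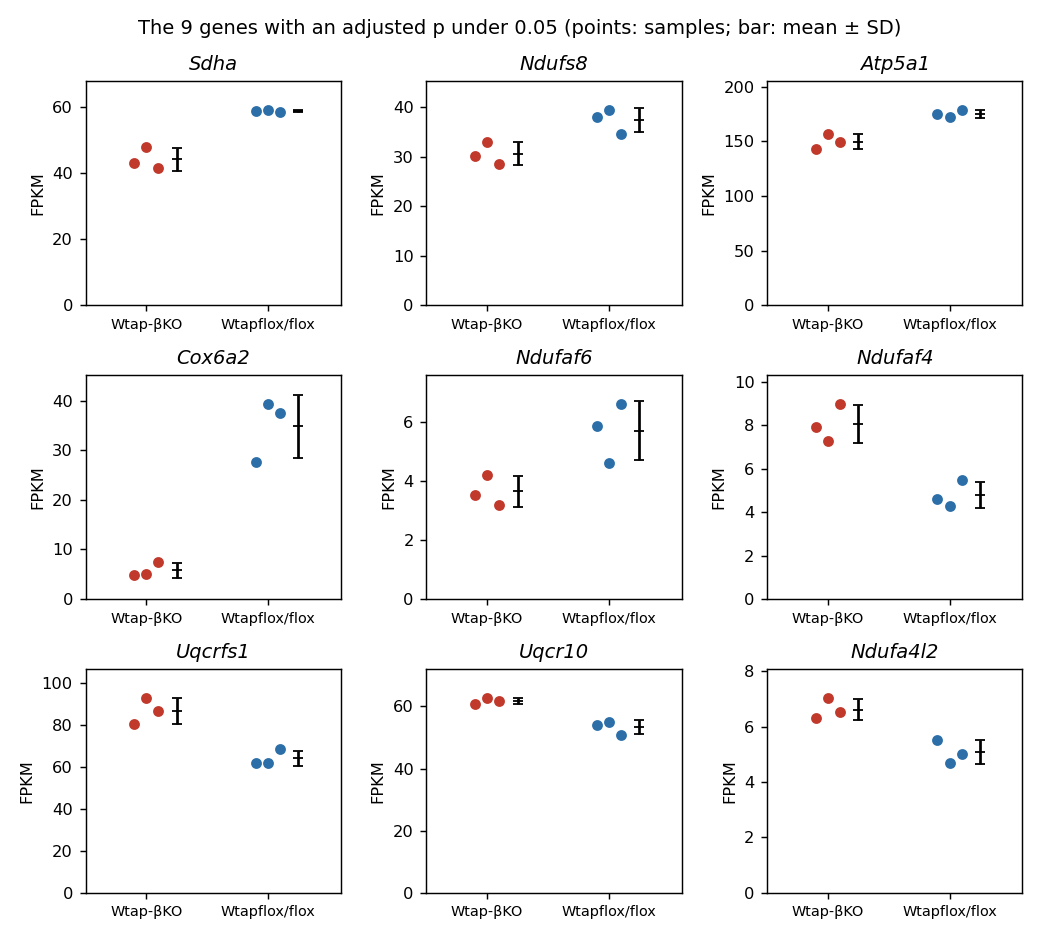
FPKM per sample of the 9 genes that changed, Wtap-βKO in red on the left of each panel and Wtapflox/flox in blue on the right, with mean and SD beside the points. The groups do not overlap for any of the 9, and the gap is widest for Cox6a2 (5.76 FPKM in Wtap-βKO islets and 34.8 FPKM in Wtapflox/flox islets).

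Summed by complex, the 2 groups overlapped for every complex. Complex I genes summed to 1061 ± 81.0 FPKM in Wtap-βKO islets and 1061 ± 25.4 FPKM in Wtapflox/flox islets (SD, n = 3 each). Complex II summed to 186 ± 22.1 FPKM in Wtap-βKO islets and 189 ± 7.40 FPKM in Wtapflox/flox islets. Complex III summed to 426 ± 32.7 FPKM in Wtap-βKO islets and 393 ± 22.5 FPKM in Wtapflox/flox islets. These differences were all within the spread of the Wtap-βKO samples or close to it. Complex IV summed to 1005 ± 110.5 FPKM in Wtap-βKO islets and 937 ± 27.9 FPKM in Wtapflox/flox islets, and complex V to 709 ± 50.4 FPKM in Wtap-βKO islets and 741 ± 26.0 FPKM in Wtapflox/flox islets. All 88 subunits and carriers together summed to 3400 ± 287 FPKM in Wtap-βKO islets and 3333 ± 103 FPKM in Wtapflox/flox islets.

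**Figure D4:**
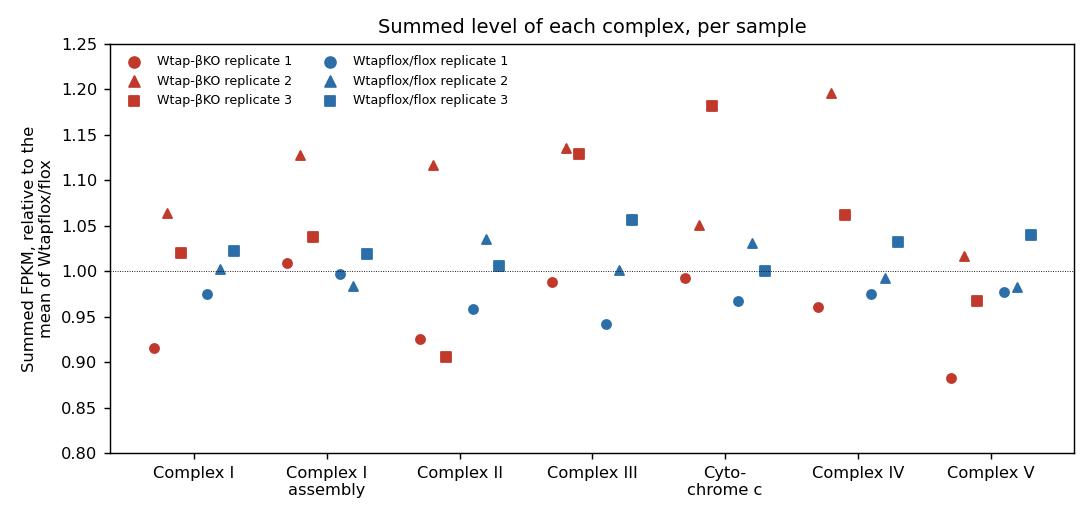
Summed FPKM of each complex per sample, relative to the mean of the Wtapflox/flox samples, with Wtap-βKO in red and Wtapflox/flox in blue and a symbol for each replicate. The groups overlap in every complex, and Wtap-βKO replicate 1 lies below replicate 2 in each.

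The spread among Wtap-βKO libraries was shared across the genes. Wtap-βKO replicate 1 had the lowest value of its group for 72 of the 91 genes (79.1%), where it did for 34.1% of all genes tested, and replicate 2 had the highest for 61 (67.0%), against 39.1% of all genes. The median deviation of the 91 genes from their means over the 6 samples was -0.11 in Wtap-βKO replicate 1, 0.10 in replicate 2 and 0.02 in replicate 3 on the log2 scale. In the Wtapflox/flox libraries it was -0.06, -0.02 and 0.04 in replicates 1, 2 and 3. Over all genes tested the same measure lay between -0.01 and 0.01 in each library. The median coefficient of variation of the 91 genes was 8.93% among Wtap-βKO samples and 6.03% among Wtapflox/flox samples. Without Wtap-βKO replicate 1, 6 genes were higher and 2 lower, and without replicate 2, 3 were higher and 8 lower, so the number of calls in each direction turned on which library was kept.

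**Figure D5:**
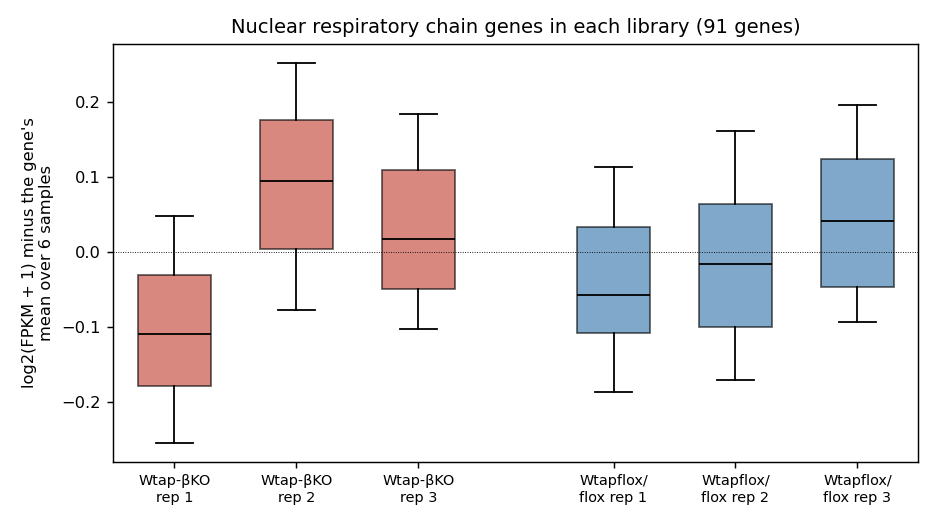
Deviation of log2(FPKM + 1) from each gene's mean over 6 samples, for the 91 genes, with boxes for the middle of the distribution, black lines for medians and whiskers from the 10th to the 90th percentile. Wtap-βKO replicates 1 and 2 lie at medians of -0.11 and 0.10, farther from 0 than any Wtapflox/flox library (-0.06 to 0.04).

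The other genes of the pathway were described from 9 lists that hold 93 genes outside the names above, of which 89 were tested, 7 rose and 6 fell. Of all genes tested, 8.77% rose and 11.3% fell, 20.1% together. The assembly lists, which leave out the Nduf-named factors with Ndufaf6 among them, had 6 of 46 tested genes higher (13%, against 8.77% of all genes tested) and 0 lower (against 11.3%). In either direction these 6 came to 13% of the tested assembly genes, against 20.1% of all genes tested. Higd1a, a hypoxia-inducible protein that binds cytochrome oxidase, rose 1.90-fold to 8.68 ± 0.469 FPKM in Wtap-βKO islets, against 4.57 ± 0.275 FPKM in Wtapflox/flox islets (n = 3 each; adjusted p = 0.000884). With Cmc2 (1.55-fold, adjusted p = 0.0126) and Cox19 (1.43-fold, adjusted p = 0.0282), it made 3 of 23 tested complex IV assembly genes higher and 0 lower. Uqcc3, which stabilises complex III during assembly, rose 1.65-fold (adjusted p = 0.0119), as 1 of 6 in its list. Sdhaf2, which helps attach the flavin to SDHA, rose 1.23-fold (adjusted p = 0.0172), as 1 of 4. It thus changed in the opposite direction to Sdha. Tmem70, which helps assemble the c ring, rose 1.24-fold (adjusted p = 0.0307), as 1 of 3. None of the 10 tested complex I assembly genes outside the Nduf names passed the test, and the smallest adjusted p there was 0.0879 (Timmdc1).

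Enzymes that feed electrons into the chain beside complexes I and II had 1 gene higher and 3 lower of 7 tested. For this and the next lists, the shares of all genes tested were 8.77% higher and 11.3% lower. Gpd2, the mitochondrial glycerol-3-phosphate dehydrogenase, had 13.5, 9.77 and 12.4 FPKM in Wtap-βKO islets, against 28.1, 31.5 and 24.5 FPKM in Wtapflox/flox islets, and fell 2.36-fold (log2 fold change -1.18, SE 0.13, adjusted p = 0.00205). Etfa, a subunit of the electron transfer flavoprotein of fatty acid oxidation, fell 1.38-fold (adjusted p = 0.00432), and the sulphide oxidase Sqor fell 1.33-fold (adjusted p = 0.0145). Chdh, choline dehydrogenase, rose 2.59-fold, with 1.44 ± 0.361 FPKM in Wtap-βKO islets and 0.556 ± 0.0344 FPKM in Wtapflox/flox islets (adjusted p = 0.0206). Of 11 coenzyme Q genes, Coq8b fell 1.49-fold (adjusted p = 0.0063). None of 12 tested genes of respiratory gene transcription and mitochondrial DNA maintenance passed the test (smallest adjusted p = 0.0542, Gabpb1). Of the 13 subunits from the mitochondrial genome, mt-Nd4 (1.33-fold, adjusted p = 0.0177) and mt-Nd2 (1.35-fold, adjusted p = 0.0485) fell, and the median log2 fold change was -0.25. Cox19, Sqor and Chdh were named after their values were seen.

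Promoter sequence was described because the nuclear genes of the chain are known targets of shared factors, among them NRF1, GABPA, YY1 and the ERR receptors. RefSeq promoters of GRCm38.p6, reaching from 250 bases before a gene's start to 50 after it, matched 75 of the 95 symbols. The motif letters were GCGC, any 2 bases and again GCGC for NRF1, CCGGAAG for GABPA, ATGGCGGC for YY1 and AAGGTCA for ERR, searched on both strands, and matches of different motifs shared no base in any of these promoters. The NRF1 letters occurred in 28.0% of the 75 promoters, against 14.9% of 9957 promoters of protein-coding genes tested and 7.00% of all 27025. The GABPA letters occurred in 24.0%, against 19.7% and 9.93%, the YY1 letters in 9.33%, against 5.62% and 2.61%, and the ERR letters in 10.7%, against 3.88% and 5.38%. The NRF1 letters were in 9 of 32 complex I promoters, 2 of 7 of its assembly factors, 2 of 3 in complex II, 1 of 5 in complex III, 1 of 14 in complex IV and 6 of 13 in complex V. The YY1 letters were in 6 of the 32 complex I promoters and 1 of the 7 of its assembly factors, which together supply most of the 75 promoters. None of these counts was tested.

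Of the 4 genes called under every setting, 3 have a promoter in that table, and they are shown because they moved in different directions. The promoters lie at chr13:74350191-74350490 on the minus strand for Sdha, at chr4:24897833-24898132 on the plus strand for Ndufaf4 and at chr13:30545267-30545566 on the minus strand for Uqcrfs1, and capitals mark the NRF1 letters.
Sdha: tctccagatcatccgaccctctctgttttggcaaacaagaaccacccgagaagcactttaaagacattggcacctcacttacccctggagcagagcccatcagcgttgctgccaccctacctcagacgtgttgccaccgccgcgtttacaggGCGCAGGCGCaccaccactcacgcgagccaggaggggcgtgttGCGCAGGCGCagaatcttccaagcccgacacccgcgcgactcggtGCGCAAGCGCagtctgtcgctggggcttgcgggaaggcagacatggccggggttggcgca
Ndufaf4: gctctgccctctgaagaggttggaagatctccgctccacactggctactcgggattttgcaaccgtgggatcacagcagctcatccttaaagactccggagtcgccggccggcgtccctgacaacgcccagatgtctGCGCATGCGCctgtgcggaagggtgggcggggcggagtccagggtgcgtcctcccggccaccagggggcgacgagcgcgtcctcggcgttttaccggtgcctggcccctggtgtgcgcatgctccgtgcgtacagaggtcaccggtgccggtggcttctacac
Uqcrfs1: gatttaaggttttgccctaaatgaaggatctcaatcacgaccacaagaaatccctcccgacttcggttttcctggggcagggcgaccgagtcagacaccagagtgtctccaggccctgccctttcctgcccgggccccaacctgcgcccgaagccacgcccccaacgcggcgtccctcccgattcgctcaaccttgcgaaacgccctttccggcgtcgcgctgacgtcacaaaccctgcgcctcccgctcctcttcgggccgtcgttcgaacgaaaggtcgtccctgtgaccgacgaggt
Sdha, which fell, held 3 matches, Ndufaf4, which rose, held 1, and Uqcrfs1, which rose, held none. A match is a description of letters and not evidence of binding.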

How the data were processed

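Poly-A RNA of whole islets was sequenced as paired reads with a protocol that leaves strand unmarked, per the labels' protocols. The authors deposited 1 table of FPKM with gene lengths in bases, per the file headers. The submitters' processing notes list featureCounts 1.5.0-p3, HISAT2 2.0.5, DESeq2 1.20.0 and CASAVA beside the builds GRCm38 and mm10, without saying what each was used for.

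FPKM times gene length, multiplied by a depth fitted for each library, gave whole reads within 0.01 for 100% of values. That implied depth was 1.07, 1.04 and 1.04 times the sum of recovered reads in Wtap-βKO replicates 1, 2 and 3, and 0.988, 0.966 and 0.952 times in Wtapflox/flox replicates 1, 2 and 3, so the deposited FPKM carry a scaling that differs between the groups without overlap. The deposited FPKM were used without rescaling, on the log2(FPKM + 1) scale, which understates changes of low genes. Genes with a mean of at least 0.5 FPKM were fitted by limma 3.58.1 (R 4.3.3) with a variance trend. Two-sided p-values were adjusted by Benjamini and Hochberg's method over the 15927 genes tested, and a gene was called under 0.05. Every adjusted p for a gene comes from this fit unless a left-out library or another setting is named. Those values come from a refit and were adjusted over the genes tested in it. Folds are ratios of mean FPKM, Wtap-βKO over Wtapflox/flox or its inverse for lower genes. Isoform shares were compared by two-sided exact permutation. The 3 samples of each group are independent replicates, per the labels.

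Exon overlaps and coding alignments used GENCODE M21, and near-identical copies (97% over 150 bases) were sought with BLAST 2.17.0. Of the 96 entries, 33 share exon bases with another gene (3 of the 9 that changed) and 20 have a near-identical copy (0 of the 9), which makes their levels uncertain. Coding bases replaced the protein comparison that had been planned. The limma fit was tested on simulated data, where it called 77 of 100 genes changed 1.5-fold and 100 of 100 changed 2-fold. Smaller folds, changes in genes at lower levels, the recovery of reads and the share test were not simulated.

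Named genes were isoform pairs, the 4 smallest adjusted p-values and the highest gene of each complex, changes of at least 1.5-fold, and up to 2 genes of each pathway list. The genes and lists were chosen with earlier results of these data known.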

Additional observations from a re-analysis of the deposited data

How the results depend on the processing

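Cox6a2, Sdha, Ndufaf4 and Uqcrfs1 kept their call and direction under all 15 alternatives, and no call changed sign. Counts of calls were less stable, and the cause was not tested. Genes called in Wtap-βKO islets came to 2334 higher and 1094 lower of all genes, and 15 higher and 2 lower of the 91, when scaled to total recovered reads. Of the 91, 9 were higher under quantile normalization and 8 when rescaled without the 50 highest genes. Lower calls among the 91 were 2 without a filter on low values, 3 without a variance trend and 8 with voom on recovered reads. In complex I, calls numbered 3 (quantile), 6 (total reads) and 3 (without the 50 highest), all higher, against 1 lower as deposited, and 0 (no filter), 2 lower (mean of at least 5 FPKM), 0 (no trend) and 2 lower (voom). In complex IV they numbered 4 (quantile), 6 (total reads) and 1 (no filter), of which 3, 5 and 0 were higher. In complex V they numbered 0 (total reads), 0 (no filter), 2 (mean of at least 5 FPKM), 0 (no trend) and 2 (voom). Complex I assembly factors had 1 under total reads, no filter and a mean of at least 5 FPKM, complex II had 2 with voom, and complex III had 1 without a trend and with voom. With the replicate number as a block, 1148 of all genes were higher and 1490 lower, 3 of the 91 were higher and 4 lower, and calls were 1 (complex I assembly factors), 2 (complex II), 1 (complex III), 1 (complex IV) and 1 (complex V, higher). Same-numbered samples correlated at 0.03, 0.04 and 0.02 (deviations from group means), each the best match of its samples. These values are small, and deviations within a group cancel out, so the values are not independent. They do not show a pairing, and the design names none. Leaving out a library in turn gave 782 to 1380 higher and 1027 to 1853 lower of all genes, and 2 to 6 higher and 2 to 8 lower of the 91. By complex this gave 0 to 4 calls in complex I, 1 to 2 in its assembly factors, 1 to 2 in complex III, 1 to 4 in complex IV and 0 to 1 in complex V. In recovered reads, which are not per length, the Atp5g1 share differed by -2.18 points.

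Groups of 3 limit every test, and reads from amplified libraries are not independent molecules. Genes under about 1 FPKM rest on a few reads (Cox7a1, Cox6b2, Cox8b).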

Other observations

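The 96 genes took a larger share of the summed FPKM of all genes in Wtap-βKO libraries (0.857%, 0.922% and 0.89% in replicates 1, 2 and 3) than in Wtapflox/flox libraries (0.789%, 0.797% and 0.813%), without overlap. Their own sums overlapped, with 3153, 3732 and 3478 FPKM in Wtap-βKO libraries and 3286, 3374 and 3493 FPKM in Wtapflox/flox libraries. The sums over all genes were 367826, 404754 and 390873 FPKM in Wtap-βKO libraries and 416676, 423414 and 429748 FPKM in Wtapflox/flox libraries. These totals were thus lower in Wtap-βKO libraries, without overlap. The shares and sums were not tested.

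Beside its isoform Cox6b1, the testis-typical Cox6b2 made up 1.07%, 1.19% and 0.249% of the pair in Wtap-βKO islets and 0.299%, 0.384% and 0.294% in Wtapflox/flox islets. Wtap-βKO replicate 3 lay below the Wtapflox/flox values and the other Wtap-βKO replicates above them. Markers of male germ cells summed to 0.107, 0.0978 and 0 FPKM in Wtap-βKO libraries and 0, 0.111 and 0.295 FPKM in Wtapflox/flox libraries.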
